A study of Mus musculus with 16 samples.

Results

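The cells described here are the mitotic cells of mouse colon tumour organoids, chosen by a score over 8 genes of the G2 and M phases of the cell cycle. A cell was kept if it had 1000 or more genes, 2000 or more UMIs (unique molecular identifiers, each marking 1 captured RNA molecule) and no more than 20% mitochondrial UMIs, which left 4186 cells. In each kept cell the UMIs of Nusap1, Ube2c, Hmmr, Ccnb1, Aurkb, Ccna2, Birc5 and Cdca3 were scaled to 10000 UMIs per cell, log-transformed as ln(1 + value) and averaged. The top 10% of kept cells by this score, both libraries pooled, are the 419 mitotic cells, 313 of 2687 in the control library and 106 of 1499 in the knockout library. The remaining kept cells, 2374 control and 1393 knockout, are called other cells.

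The organoids, epithelial cultures that keep dividing stem cells, came from AOM/DSS tumours, which a carcinogen (azoxymethane) and an irritant (dextran sodium sulfate) raise in the mouse colon. Control cells have the genotype KMT9wt/wt and are labelled minus TAM, and knockout cells have the genotype KMT9ko/ko and are labelled plus TAM. Both groups were at passage 14, and their count matrices are labelled with the same day. No matrix of another day was used here. The labels name neither the driver of the deletion nor how many organoid lines were used. TAM is not spelled out in the labels, and its own effect and that of the deletion cannot be told apart. Each group has 8 records but 1 count matrix and counts here as 1 library, so no difference between control and knockout has a replicate check and none was tested.

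During G2 a cell builds up cyclin B and CDK1, whose joint activity starts mitosis. Kinesins, the chromosomal passenger complex and the kinetochore then attach chromosomes to the spindle, and the anaphase promoting complex ends mitosis by marking cyclins for destruction. Many genes of this programme are switched on together late in the cell cycle, through promoters that often hold repeated CCAAT boxes bound by NF-Y and CHR elements bound by the DREAM and MuvB complexes. KMT9 is a histone methyltransferase made of N6amt1 and Trmt112, and in the colon the dividing cells sit in the lower crypt, away from the mature colonocytes of the surface.

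The repeated CCAAT boxes can be seen in the promoters of Ube2c and Hmmr, which are 2 of the score genes, and of Top2a and Cdk1, which are not. These 4 hold 3 to 6 boxes each and are printed as examples. The promoters of Mki67 and of Ascl2, which is on none of the G2 and M lists, also hold 3. That of the score gene Birc5 holds 0. The sequences are from RefSeq on GRCm38.p6, the mm10 build, reach at most 250 bases upstream of the RefSeq start, leave out bases that GENCODE places in an exon and run 5′ to 3′ on the strand of the gene. Capitals mark CCAAT or its reverse complement ATTGG, and the pair in CCAATTGG overlaps.
Ube2c, chr2:164769679-164769897, plus strand: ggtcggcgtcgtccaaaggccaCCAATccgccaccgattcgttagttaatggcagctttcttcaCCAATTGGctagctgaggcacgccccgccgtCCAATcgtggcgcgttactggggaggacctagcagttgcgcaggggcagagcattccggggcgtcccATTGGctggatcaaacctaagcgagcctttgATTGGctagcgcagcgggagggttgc
Hmmr, chr11:40733438-40733666, minus strand: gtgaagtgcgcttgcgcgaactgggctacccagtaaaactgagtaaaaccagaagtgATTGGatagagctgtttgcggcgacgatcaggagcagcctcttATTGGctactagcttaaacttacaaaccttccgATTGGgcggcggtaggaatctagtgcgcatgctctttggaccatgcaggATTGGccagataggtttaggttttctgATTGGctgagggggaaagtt
Top2a, chr11:99024190-99024439, minus strand: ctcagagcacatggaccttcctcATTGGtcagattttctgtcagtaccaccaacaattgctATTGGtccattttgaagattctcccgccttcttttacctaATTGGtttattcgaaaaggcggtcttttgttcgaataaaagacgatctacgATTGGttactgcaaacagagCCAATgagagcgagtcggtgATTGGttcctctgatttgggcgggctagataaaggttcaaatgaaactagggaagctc
Cdk1, chr10:69352939-69353162, minus strand: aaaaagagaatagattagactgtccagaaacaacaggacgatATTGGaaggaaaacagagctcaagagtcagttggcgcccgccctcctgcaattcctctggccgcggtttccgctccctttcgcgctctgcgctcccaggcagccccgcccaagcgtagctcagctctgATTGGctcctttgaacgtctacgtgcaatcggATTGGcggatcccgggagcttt
Of the 8 score genes 6 have an entry in the RefSeq promoter table, and 4 of these 6 (66.7%) held at least 2 matches of CCAAT on either strand within 250 bases. Among 117 promoters of 103 other G2 and M genes, 45 (38.5%) did, against 10.1% of all 32851 promoters and 13.2% of the promoters of measured genes. The S phase genes were close to the G2 and M genes by this count, with 18 of 52 promoters (34.6%). The letters TTTGAA, the common form of a CHR element, or their reverse complement stood in 39 of the 117 promoters (33.3%), against 16.0% of all promoters and 13.5% of those of S phase genes. Of the promoters of the score genes 1 of 6 (16.7%) held them. Matches are a description of these letters and not of bound factors.

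The targeted gene was low in the knockout library, among mitotic cells as among the others. N6amt1 lies on chromosome 16 from 87354185 to 87368742 (mm10). It had 305 UMIs in the control mitotic cells, or 29.7 CPM (counts scaled to a sum of 1000000 UMIs), and 12 UMIs in the knockout mitotic cells, 3.23 CPM. The knockout was 9.2-fold lower (log2 ratio −3.20, interval −4.17 to −2.38). The other cells had 35.1 CPM (control) and 6.36 CPM (knockout), a log2 ratio of −2.46. A UMI of N6amt1 was found in 58.5% of control and 10.4% of knockout mitotic cells. After each cell was thinned to 5000 UMIs these shares were 13.1% and 0.962%. The reads tag the 3′ end, and the labels do not say which part of the gene was deleted, so these molecules may or may not come from intact alleles. Trmt112, the partner subunit, stood at 230 and 200 CPM (log2 ratio −0.20). Ratios compare summed UMIs throughout, and each interval is an exact 95% one for counting error alone.

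The mitotic cells were deeper than the other cells. They held 10256581 UMIs in the control and 3714249 in the knockout library, with medians of 32363 and 34396 UMIs per cell against 23710 and 23829 in other cells, and with medians of 5649 and 5677 genes against 4749 and 4651. Mitochondrial UMIs took a median of 2.54% and 2.35% of a mitotic cell and 2.94% and 2.91% of an other cell. All 11 epithelial genes looked for were present, with a summed level between 11761 and 17515 CPM over the 4 groups of cells (mitotic and other, control and knockout). Of 17 immune genes 12 had no UMI in control and 15 none in knockout mitotic cells, and the list summed to between 10.0 and 15.1 CPM, most of it Cd68. Of 10 fibroblast genes 9 had no UMI in the mitotic cells of either library (1.36 to 2.69 CPM over the 4 groups), and Ptprc and Col1a1 gave 2 or fewer UMIs there. The 8 endothelial genes summed to between 8.58 and 21.8 CPM, mostly from Cdh5, which had 57 and 67 UMIs in control and knockout mitotic cells, while Pecam1 had 3 and 1. The part of these genes in the results was not tested.

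Part of the barcodes occurred in both matrices, 498 in all, and 15 of these had both copies among the kept cells. Of the mitotic cells 99 carried such a barcode, 61 in the control (19.5%) and 38 in the knockout library (35.8%). In every one of these 99 the mitotic copy was the larger, by 32.0 to 76.8-fold (median 64.1-fold), and in no pair were both copies mitotic. The smaller copies held 505 to 2151 UMIs, and 1 of them was kept. Values without these cells keep the other mitotic cells as they were chosen, unless a new limit is named. Among genes named below, the log2 ratio of knockout to control in mitotic cells moved from −3.20 to −3.81 for N6amt1, from −3.96 to −4.96 for Ces2e, from −2.00 to −2.82 for Ung, from −1.73 to −2.62 for Hspa1a and from 2.80 to 1.92 for Sprr1a. With the cells of shared barcodes removed before scoring, so that the top 10% was chosen anew, it was −1.84 in place of −3.67 for Cyp1a1, 1.66 in place of 2.78 for Nts and −1.12 in place of −2.02 for Lgr5.

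The limit of the mitotic cells runs through a range of scores and not through a gap. In bins 0.1 wide, the control share fell from 71.0% at 0 to 0.1 to 0.893% at 0.3 to 0.4. It rose again to 2.64% at 0.8 to 0.9, the bin that holds the limit. The knockout share fell from 83.3% at 0 to 0.1 to 0.534% at 0.7 to 0.8 and rose to 1.60% at 1 to 1.1. The lowest score inside was 0.829 and the highest outside was 0.828. Within 0.1 of this limit lay 65 control and 18 knockout cells inside and 67 control and 13 knockout cells outside. Mitotic cells had UMIs of at least 4 of the 8 markers, and of all 8 in 236 of 313 control and 81 of 106 knockout cells. The score was 0 in 46.9% of the other cells in the control and in 65.6% in the knockout library. 

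**Figure D1:**
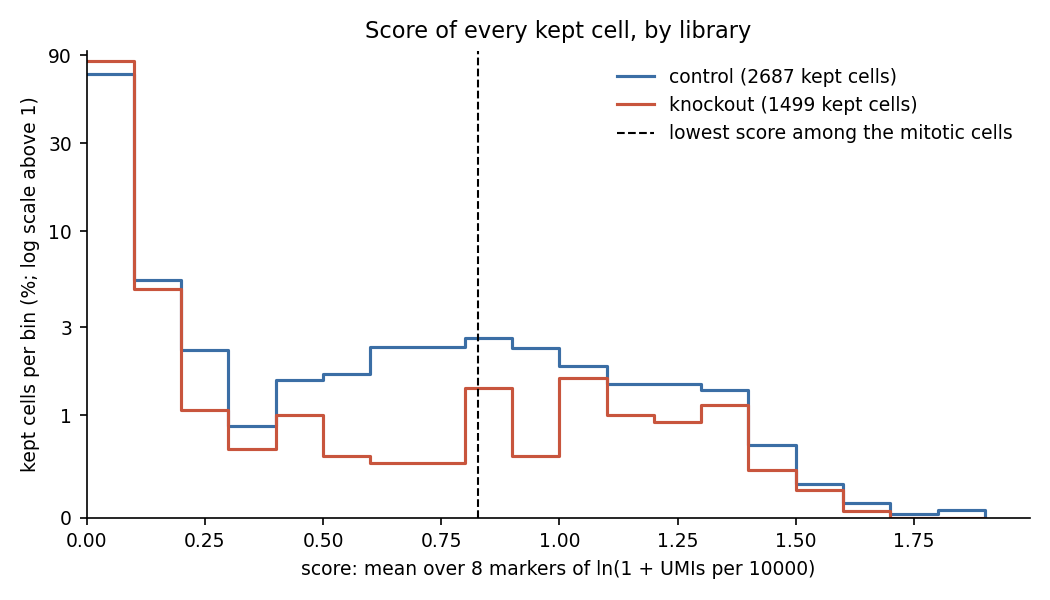
Percent of the kept cells of each library in bins of the score that are 0.1 wide, on a scale that is logarithmic above 1%, with the limit of the mitotic cells as a dashed line. Both libraries pile up at the lowest scores, and the control line lies above the knockout line in each bin from 0.1 upward that holds cells.

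By this limit 11.6% of control cells (exact interval 10.5 to 12.9%) and 7.07% of knockout cells (5.83 to 8.49%) were mitotic. The limit itself fixes 10% over both libraries together, so the 2 shares are a description and depend on each other. The order of the libraries was the same with scores taken after thinning each cell to 5000 UMIs, which gave 11.7% and 6.90%. A score over 12 other G2 and M genes, among them Cdk1, Plk1, Cdc20 and Top2a, chose 358 of the same 419 cells (85.4%) and gave 11.4% and 7.61%. In the cells chosen by that other score the 8 markers were 3.02 to 4.52 higher on the log2 scale than in other cells in the control. In the knockout library they were 4.71 to 5.99 higher. Since 358 of these 419 cells had been chosen by the 8 markers, these values describe the overlap and are no separate check.

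Against the other cells, the mitotic cells were higher in 568 of 8321 measured genes (6.83%) and lower in 283 (3.4%) in both libraries. A gene was measured at 10 or more CPM in at least 1 of the groups compared, and higher or lower means a ratio of 1.5-fold or more, which is a size threshold and not a test. Because the score picks cells by genes that travel together, these counts describe the chosen cells and no test was made. The median log2 ratio of all measured genes was 0.04 in the control and −0.02 in the knockout library.

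The 6 lists of G2 and M genes, taken without the 8 score markers, went with the score nearly as a whole. Of their 123 measured genes 116 were higher in the mitotic cells of both libraries and 0 were lower, with a median log2 ratio of 2.56 in the control and 3.51 in the knockout library. Cdk1, the kinase that drives entry into mitosis, stood at 432 CPM in control mitotic cells and 44.5 CPM in other control cells, and at 432 and 15.9 CPM in the knockout. Plk1, a kinase of centrosome maturation and mitotic entry, stood at 120 and 8.16 CPM in the control and at 128 and 2.13 CPM in the knockout. The levels in mitotic cells thus lay close together in the 2 libraries, while those in other cells did not. The limit of the score is common to both libraries and partly sets this pattern. UMIs of Plk1 were found in 88.8% of control and 89.6% of knockout mitotic cells, and in 13.9% and 3.52% of other cells. At 5000 UMIs per cell these shares were 44.3%, 40.4%, 2.86% and 0.846%.

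Other genes along the steps of mitosis gave similar values, again under the common limit of the score. For entry and exit, Cdc20, the activator of the anaphase promoting complex, stood at 275 CPM in control and 254 CPM in knockout mitotic cells, against 15.8 and 9.74 CPM in other cells. All 30 genes of the chromosomal passenger and kinetochore list were higher in both libraries. Cenpe, the kinesin that carries chromosomes to the spindle centre, stood at 99.7 and 77.8 CPM against 6.05 and 2.39 CPM, and Cenpf, a large kinetochore protein, at 191 and 150 CPM against 11.9 and 5.16 CPM. All 10 measured cytokinesis genes were higher, among them Racgap1, a subunit of the centralspindlin complex that positions the cleavage furrow, with 171 and 175 CPM against 16.1 and 6.53 CPM. All 22 genes of the condensin, topoisomerase and chromatin list were higher too, with a smaller median log2 ratio of 1.62 and 2.33. Smc4, a core subunit of condensin, stood at 283 and 252 CPM against 51.3 and 23.5 CPM, and Mki67, which coats mitotic chromosomes, at 96.5 and 104 CPM against 10.4 and 4.90 CPM. Of the 15 measured cell cycle transcription factors 7 were higher. Beside each of these lists, 6.83% of all genes were higher in both libraries. Foxm1, an activator of late cell cycle genes, stood at 31.4 and 25.8 CPM against 3.84 and 1.72 CPM. Taking the top 10% of each library instead moved the log2 ratios of knockout to control in mitotic cells. They were −0.72 for Cenpf, −0.70 for Cenpe and −0.40 for Cdc20, in place of −0.35, −0.36 and −0.12. Top2a stayed higher in the knockout (0.41).

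**Figure D2:**
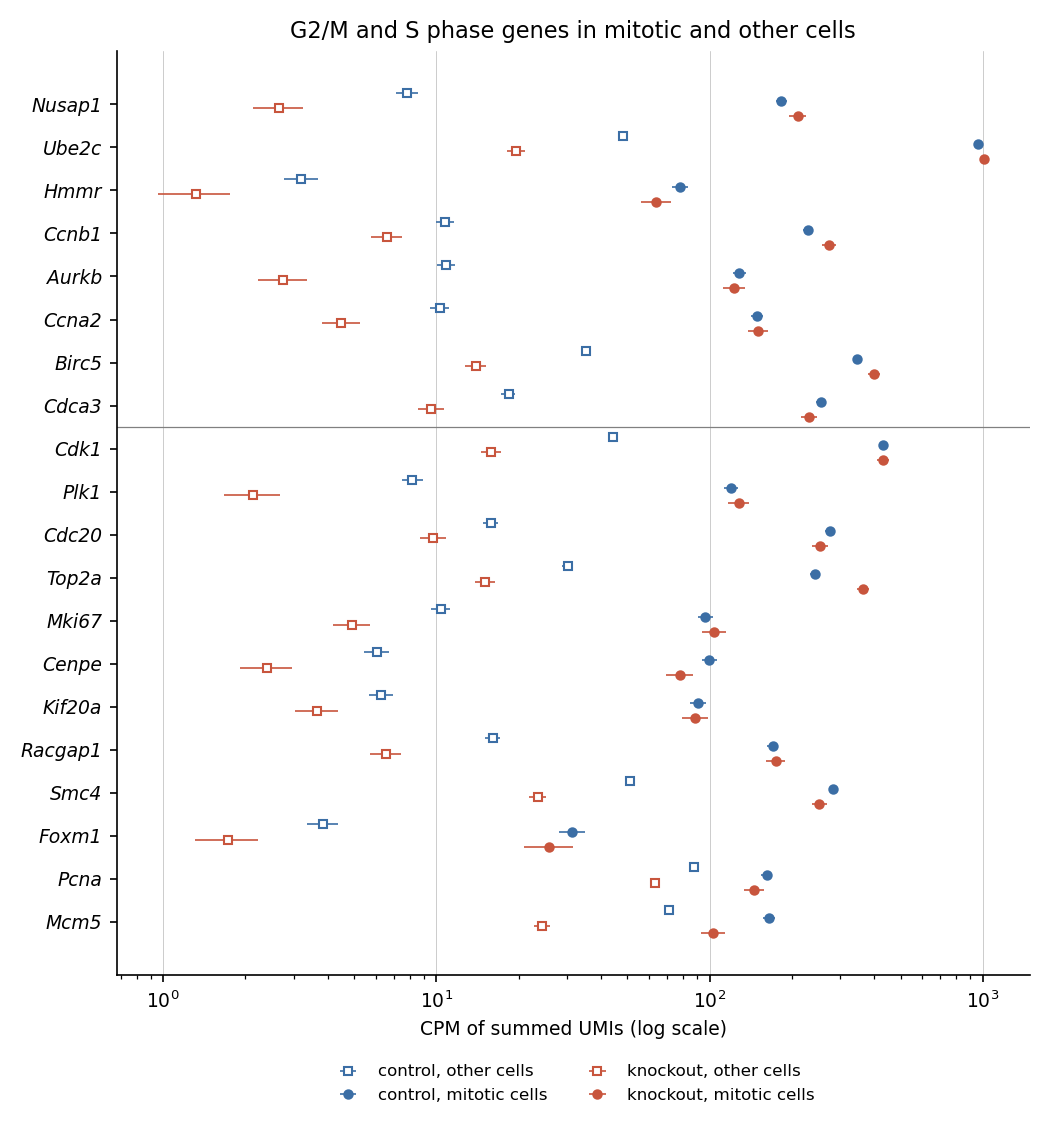
CPM of summed UMIs on a log axis for the 8 score markers (above the line), 10 other G2 and M genes and the S phase genes Pcna and Mcm5, in the mitotic (filled) and other (open) cells of the control (blue) and knockout (red) library, with exact 95% intervals for counting error as bars. Filled points of the 2 libraries lie close together for most genes, with Top2a and Mcm5 further apart, and open red squares lie left of open blue squares for every gene shown.

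Colonocyte genes were among those that were low in mitotic cells of both libraries. Of 17 measured colonocyte genes 10 were lower in both libraries and 0 higher, beside 3.4% and 6.83% of all genes. Vim, an intermediate filament gene, stood at 74.8 CPM in control and 152 CPM in knockout mitotic cells against 179 and 356 CPM in other cells. Mt3 and Mt4, which encode metallothioneins, stood at 21.6 and 12.7 CPM in control mitotic cells against 146 and 161 CPM in other control cells. Cdkn1c, an inhibitor of cyclin-dependent kinases, stood at 8.87 and 20.7 CPM against 37.0 and 61.1 CPM, and Neat1, a nuclear long non-coding RNA, at 81.2 and 180 CPM against 193 and 418 CPM. Hist1h1c, a linker histone gene whose RNA can be polyadenylated, stood at 39.3 and 145 CPM against 105 and 344 CPM. Car1, the carbonic anhydrase of colonocytes, stood at 3.8 and 18 CPM against 61.5 and 279 CPM. A single cell with a shared barcode held 86.6% of the Car1 UMIs of the knockout mitotic cells, and without such cells the log2 ratio of knockout to control there was −1.36 instead of 2.25. With the top 10% chosen anew without them it was −0.70.

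The mitotic cells were not alike among themselves. Pearson correlations were computed over the mitotic cells of each library between Cdc20 or Pcna, the sliding clamp of DNA replication, and each of 2761 other genes with 50 or more CPM, and the smaller of the 2 values was used to rank them. They are descriptions without a test, since cells of 1 library share its depth and preparation and counts are sparse. Ccnb1, a score marker, went with Cdc20 (r = 0.58 over 313 control and 0.59 over 106 knockout cells), as did Cenpa, the centromeric histone (0.62 and 0.51), Ccnb2 (0.49 and 0.66), Arl6ip1 (0.50 and 0.52), Aurka (0.57 and 0.47) and Plk1 (0.51 and 0.45). Pclaf, a partner of PCNA, went against it (−0.51 and −0.47), as did Rfc2, a loader of PCNA (−0.50 and −0.42), and Mcm6, a subunit of the replicative helicase (−0.43 and −0.39). With Pcna went Slbp, the histone mRNA binding protein (0.59 and 0.61), Pclaf (0.61 and 0.59), Mcm6 (0.56 and 0.64) and Tyms, the thymidylate synthase (0.55 and 0.63). Ube2c, a score marker and the ubiquitin-conjugating enzyme of the anaphase promoting complex, went most strongly against Pcna (−0.62 and −0.55). The 15 genes at either end of both rankings show a range that runs from cells with replication genes to cells with late mitotic genes.

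S phase genes were also higher in the mitotic than in the other cells of both libraries, in 51 of 55 measured genes, and 1 was lower. Of all genes 6.83% were higher and 3.4% lower. The median log2 ratios of the list were 1.22 in the control and 2.02 in the knockout library. In cells thinned to 5000 UMIs the S phase list took a median of 0.40% of the UMIs of a control mitotic cell and 0.26% of a knockout mitotic cell, against 0.12% and 0.06% in other cells. The quartiles were 0.26 and 0.58% in control and 0.16 and 0.47% in knockout mitotic cells, so the 2 ranges overlapped broadly. The G2 and M lists without the score markers took a median of 2.50% and 2.74%, with quartiles of 2.18 and 2.96% and of 2.32 and 3.08%. Of the thinned mitotic cells 104 of 305 in the control (34.1%, exact interval 28.8 to 39.7%) and 26 of 104 in the knockout library (25%, 17.0 to 34.4%) reached the S phase share of the top 10% of all kept cells, which was 0.50%. These intervals overlap, and 8 and 2 shallower mitotic cells were left out.

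**Figure D3:**
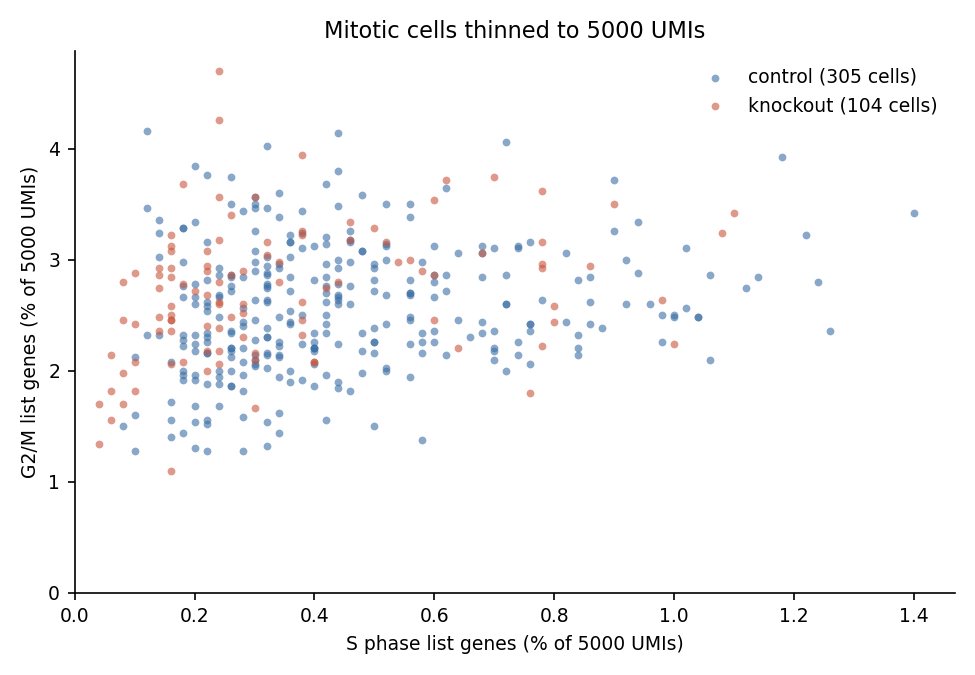
Each point is 1 mitotic cell thinned to 5000 UMIs, with the percent of UMIs from S phase genes across and from G2 and M genes other than the score markers upward, control in blue and knockout in red. Both libraries spread over S phase shares from below 0.1% to above 1%, and the highest values, up to 1.4%, are control cells.

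Between the libraries, 653 of 7963 genes measured in mitotic cells were higher in the knockout by the same threshold (8.2%) and 1162 were lower (14.6%), with a median log2 ratio of −0.11 over all of them. In the other cells 651 of 7857 genes were higher (8.29%) and 796 lower (10.1%), with a median of −0.05. With scaling by trimmed mean factors the mitotic cells gave 763 higher and 1002 lower, and the median of all genes was −0.06. The mitotic sums of the knockout library rest on 106 cells, and small counts widen the ratios there.

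The genes of mitosis itself had median ratios near 0. Each of the 8 score markers lay between −0.29 (Hmmr) and 0.25 (Ccnb1) on the log2 scale, which the common limit of the score partly sets. In the other cells the same 8 genes were lower in the knockout, by log2 ratios from −0.71 (Ccnb1) to −1.99 (Aurkb), and there the score kept high values out. Of these other cells 218 of 2374 in the control and 47 of 1393 in the knockout library still held 5 or more of the 8 markers. Of the 123 measured genes of the 6 G2 and M lists 5 were higher and 9 lower in knockout mitotic cells, with a median of −0.03, where 8.2% of all genes were higher and 14.6% lower. The common limit bears on these lists too: with the top 10% of each library taken instead, the median was −0.34 for CDK1, cyclins and regulators, −0.30 for the chromosomal passenger and kinetochore list and −0.25 for cytokinesis. The 5 were Kif18a, Kpna2, Kif15, Cenpw and Aspm, between 0.61 and 0.84, and they include motors of the spindle and an importin. The 9 were Ckap2, Cdca5, Tubb4b, Ccnf, Ckap2l, Anapc11, Psrc1, Gtse1 and Fbxo5, between −1.02 and −0.63, named after their values were seen. Ckap2, a microtubule-associated protein, stood at 160 and 79.2 CPM, and Cdca5, which protects cohesion between sister chromatids, at 75.9 and 39.3 CPM. Top2a, the topoisomerase that untangles sister chromatids, stood at 243 and 365 CPM, just under the size threshold (log2 ratio 0.58, interval 0.49 to 0.68). In the condensin, topoisomerase and chromatin list 0 of 22 genes passed it.

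S phase genes were lower in knockout mitotic cells in 11 of 55 measured genes and higher in 0, with a median of −0.40, beside 14.6% and 8.2% of all genes. Fen1, the flap endonuclease of lagging-strand synthesis, stood at 122 and 66.8 CPM (log2 ratio −0.87). Cdt1, a licensing factor of replication origins, stood at 101 and 55.5 CPM, and Chaf1a, a histone chaperone at the fork, at 62.4 and 35.5 CPM. Ung, which removes uracil from DNA, stood at 19.4 and 4.85 CPM, and unlike the others it was low in mitotic cells of both libraries. The list depended on which cells were counted: without the cells of shared barcodes 30 of its genes were lower, with a median of −0.65. With the top 10% of each library 7 of 56 were lower and 0 higher (median −0.28). Under the score over other G2 and M genes 6 of 56 were lower and 2 higher (−0.26). The top 5% gave 8 of 53 lower and 3 higher (−0.20), and the top 20% gave 22 of 54 lower and 0 higher (−0.55). In the other cells 37 of 42 measured S phase genes were lower, with a median of −1.24. Pclaf was 226 CPM in control and 290 CPM in knockout mitotic cells (log2 ratio 0.36) but 51.1 and 21.4 CPM in other cells (−1.26).

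Targets of p53, the factor that answers DNA damage and stress, had a median log2 ratio of −0.77 over 19 measured genes in mitotic cells. Of these 12 were lower in the knockout and 0 higher, where 14.6% of all genes were lower. Bbc3, which encodes the pro-apoptotic protein PUMA, stood at 191 CPM in control and 62.2 CPM in knockout mitotic cells (log2 ratio −1.62, interval −1.82 to −1.42), and at 98.9 and 66.6 CPM in other cells. Perp, a membrane protein of p53-dependent apoptosis and of desmosomes, stood at 378 and 134 CPM, and at 250 and 187 CPM in other cells. Mdm2, the ubiquitin ligase that degrades p53, stood at 206 and 103 CPM (interval of the log2 ratio −1.16 to −0.84), and at 107 and 109 CPM in other cells. Control mitotic cells were thus the highest of the 4 groups for each of the 3 genes. Trp53inp1, a stress-induced p53 partner, stood at 44.8 and 16.4 CPM, with 41.4 and 45.6 CPM in other cells, and Sesn2, which restrains mTORC1, at 39.7 and 16.4 CPM. Plk2, Btg2 and Pmaip1 did not pass the size threshold (log2 ratios −0.15, −0.11 and 0.18).

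In other cells 0 of 18 measured p53 targets passed the threshold in either direction, with a median of −0.14. In the control library the list was higher in mitotic than in other cells (median log2 ratio 0.51), and in the knockout library it was not (−0.10). Per cell at 5000 UMIs the list took a median of 0.44% of the UMIs of control mitotic cells, with quartiles of 0.32 and 0.60%, and 0.29% of knockout mitotic cells, with quartiles of 0.18 and 0.38%. Other cells had medians of 0.30% and 0.28%. Without the cells of shared barcodes the mitotic median was −0.76, with 13 genes lower, and without mitotic cells of a high S phase share it was −0.74. Cdkn1a, the p21 inhibitor of cyclin-dependent kinases and a p53 target kept in another list, stood at 1082 and 714 CPM in mitotic cells (log2 ratio −0.60) and at 653 and 597 CPM in other cells (−0.13). Whether the libraries differ in this between mitotic and other cells could not be tested.

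Histone genes went the opposite way. Most histone RNA lacks a poly(A) tail and is poorly caught by a protocol that primes on poly(A), so these values cover the polyadenylated part, and copies that are nearly identical in sequence cannot be told apart with certainty. Of 9 measured replication-dependent histone genes 6 were higher in knockout mitotic cells and 0 lower, with a median of 1.25, beside 8.2% and 14.6% of all genes. The rise was not particular to mitotic cells. In other cells 5 of 6 measured genes were higher and 1 lower, with a median of 0.88, beside 8.29% and 10.1% of all genes. Hist1h2bc, a gene for histone H2B, stood at 66.2 and 368 CPM in mitotic cells (5.56-fold, log2 ratio 2.47, interval 2.34 to 2.61) and at 173 and 415 CPM in other cells (1.27). It was thus low in control mitotic cells compared with the other 3 groups. Its UMIs were found in 54.3% of control and 88.7% of knockout mitotic cells, and at 5000 UMIs per cell in 23.6% and 55.8%. Hist1h1c stood at 39.3 and 145 CPM (log2 ratio 1.88), and Hist3h2a, a gene for histone H2A, at 66.1 and 198 CPM (1.59). Hist1h2ap and Hist1h1b, which had the highest ratios of mitotic to other cells, stood at 270 and 330 CPM and at 15.8 and 14.3 CPM and did not pass the threshold.

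**Figure D4:**
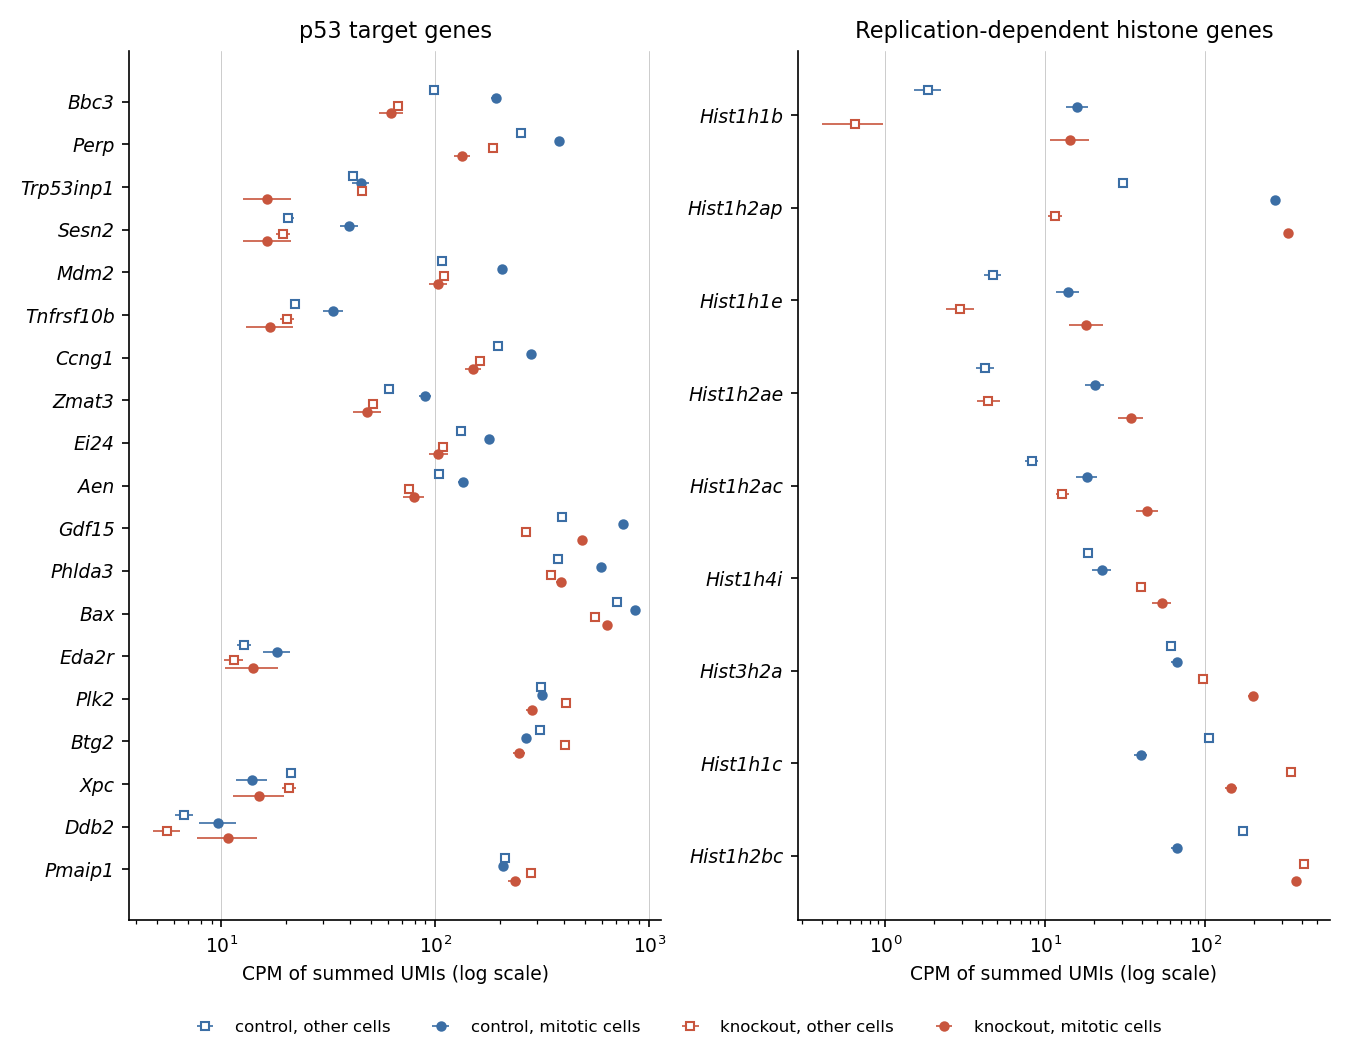
CPM of summed UMIs on a log axis for the measured p53 targets (left) and replication-dependent histone genes (right), ordered by the log2 ratio of knockout to control in mitotic cells, with mitotic cells filled, other cells open, control in blue, knockout in red and exact 95% intervals for counting error as bars. For Bbc3, Perp and Mdm2 the filled blue point is the highest of the 4, and for Hist1h2bc it is the lowest.

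Genes of the amino acid response and of tRNA charging were lower in knockout mitotic cells in 13 of 32 measured genes and higher in 2, beside 14.6% and 8.2% of all genes, with a median log2 ratio of −0.34. In other cells these counts were also 13 and 2, beside 10.1% and 8.29% of all genes, with a median of −0.44. Trib3, a pseudokinase induced by amino acid shortage, stood at 245 and 42.0 CPM in mitotic cells (5.84-fold lower, log2 ratio −2.55) and at 109 and 37.2 CPM in other cells (−1.55). Atf5, a transcription factor of this response, stood at 194 and 54.7 CPM. Ddit3, which encodes CHOP, stood at 70.1 and 27.2 CPM in mitotic cells and at 49.8 and 51.0 CPM in other cells. The 2 that were higher were Slc7a11, the cystine transporter (25.9 and 50.6 CPM), and Nupr1, a stress-induced chromatin protein (574 and 977 CPM). Ribosome biogenesis and MYC targets were lower in 8 of 31 genes in mitotic cells and higher in 0 (median −0.37), against the same 14.6% and 8.2%. Among them was Rrs1, an assembly factor of the large ribosomal subunit, at 261 and 117 CPM. In other cells 13 of the 31 genes were lower and 0 higher (median −0.54), beside 10.1% and 8.29% of all genes. Myc itself stood at 94.2 and 113 CPM in mitotic cells.

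Genes of intestinal identity differed as well. Of 12 measured identity factors 6 were lower in knockout mitotic cells and 2 higher, and 8 of 13 colonocyte genes were lower and 1 higher, the last being Car1. Of all genes measured there 14.6% were lower and 8.2% higher. The colonocyte list went the other way in other cells, where 6 of 16 measured genes were higher in the knockout and 1 lower. Its median log2 ratio was 0.41 there and −0.67 in mitotic cells. Of 12 identity factors measured in other cells 3 were lower and 0 higher (median −0.34). Of all genes measured in other cells 10.1% were lower and 8.29% higher. Cdx2, the homeobox factor of the intestine, stood at 78.1 and 32.8 CPM in mitotic cells (log2 ratio −1.25) and at 95.2 and 24.3 CPM in other cells (−1.97). Ascl2, a factor of crypt stem cells, stood at 113 and 60.0 CPM, and at 117 and 35.6 CPM in other cells. Lgr5, the crypt stem cell receptor, gave 67 UMIs in control and 6 in knockout mitotic cells. Ccnd1, cyclin D1, stood at 512 and 231 CPM in mitotic and at 561 and 290 CPM in other cells. Lypd8, a protein of the colon surface, stood at 87.0 and 11.6 CPM in mitotic cells (7.51-fold lower) and at 210 and 309 CPM in other cells, so the order of the libraries was opposite in the 2 kinds of cells. Fabp2, a fatty acid binding protein, gave 104 UMIs in control mitotic cells and 0 in knockout mitotic cells, at least 12.6-fold lower with a floor of 3 counts for the knockout sum. Ly6a, a gene of the fetal-like state, stood at 1376 and 1589 CPM in mitotic cells, and Clu, another, at 38.9 and 88.3 CPM against 87.6 and 354 CPM in other cells.

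The remaining lists had medians on both sides of 0, and their counts stand beside 8.2% of all genes higher and 14.6% lower in knockout mitotic cells. Of the 8 genes for KMT9 and for methyltransferases that use Trmt112, 2 were lower and 0 higher, with a median log2 ratio of −0.38. The 2 were N6amt1 and Thumpd3, a tRNA methyltransferase (71.9 and 40.7 CPM). Of 24 measured histone methyltransferases and demethylases 2 were higher and 2 lower, with a median of 0.05. Ezh2, the methyltransferase of Polycomb complex PRC2, stood at 100 and 103 CPM in mitotic cells against 49.0 and 41.0 CPM in other cells, and Suv39h1, a methyltransferase of heterochromatin, at 35.8 and 27.2 CPM against 14.4 and 9.60 CPM. Both were thus higher in the mitotic cells of either library. Prmt5, an arginine methyltransferase, stood at 91.9 and 59.0 CPM in mitotic cells. Of 44 nuclear genes of oxidative phosphorylation 1 was higher and 1 lower (median −0.15), and of 19 stem cell genes 1 was higher and 2 lower (0.05). Immediate early genes were higher in 4 of 22 and lower in 2 (0.10). Fetal-like and YAP target genes were higher in 6 of 19 and lower in 2 (0.30), and squamous genes higher in 3 of 8 (0.45). The 1 squamous gene that was lower was Krt4, a keratin (561 and 300 CPM). Among 14 genes of G1 cyclins, their kinases and inhibitors 3 were lower, Ccnd2 (146 and 57.9 CPM), Ccnd1 and Cdkn1a, and 1 was higher, Cdkn1c.

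The genes with the largest ratios within mitotic cells were otherwise of mixed kinds. On the high side stood Mt4 (12.7 and 125 CPM), Mt3 (21.6 and 171 CPM), Sprr1a, a cornified envelope gene (9.26 and 64.3 CPM), Nts, which encodes neurotensin (9.55 and 65.7 CPM), and Plat, the tissue plasminogen activator (34.0 and 148 CPM). Single cells weighed on 2 of them, since 1 knockout cell held 47.7% of the Sprr1a UMIs and 1 held 26.6% of those of Nts. On the low side stood Ces2e, a carboxylesterase (54.3 and 3.50 CPM), Cyp1a1, a target of the aryl hydrocarbon receptor (61.7 and 4.85 CPM, with 61.1% of its 18 knockout UMIs in 1 cell and a log2 ratio of −1.84 in place of −3.67 when the limit was set anew), Slamf9 (50.2 and 7.0 CPM), Avil, an actin-binding protein (137 and 20.5 CPM), and Chchd10, a mitochondrial protein (611 and 138 CPM). Chchd10 stood at 636 and 157 CPM in other cells, so its log2 ratio was −2.14 in mitotic and −2.01 in other cells.

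Set side by side, the ratios of the 2 libraries in mitotic and in other cells differed most for a few genes. Besides Lypd8, lower in mitotic cells and not in others were Hspa1a, an inducible heat shock protein (159 and 47.9 CPM in mitotic, 137 and 137 CPM in other cells), and Anxa8 (81.5 and 32.8 CPM, 60.8 and 72.9 CPM). Sat1, an enzyme of polyamine breakdown, was lower in mitotic cells (853 and 261 CPM) and less so in other cells (608 and 430 CPM, short of the size threshold). Ifitm1, an interferon-inducible membrane protein, was higher in mitotic cells (616 and 1603 CPM) with 1306 and 1459 CPM in other cells. Reads of a gene and of an overlapping gene on the other strand are told apart only if counting used the strand, which the sources used here do not state, and this concerns Nusap1, Ube2c, Ccna2, Cdc20, Pclaf, Trmt112, Ccnd1, Atf5, Chchd10, Avil, Ddit3, Anxa8 and Hspa1a among the genes above.

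**Figure D5:**
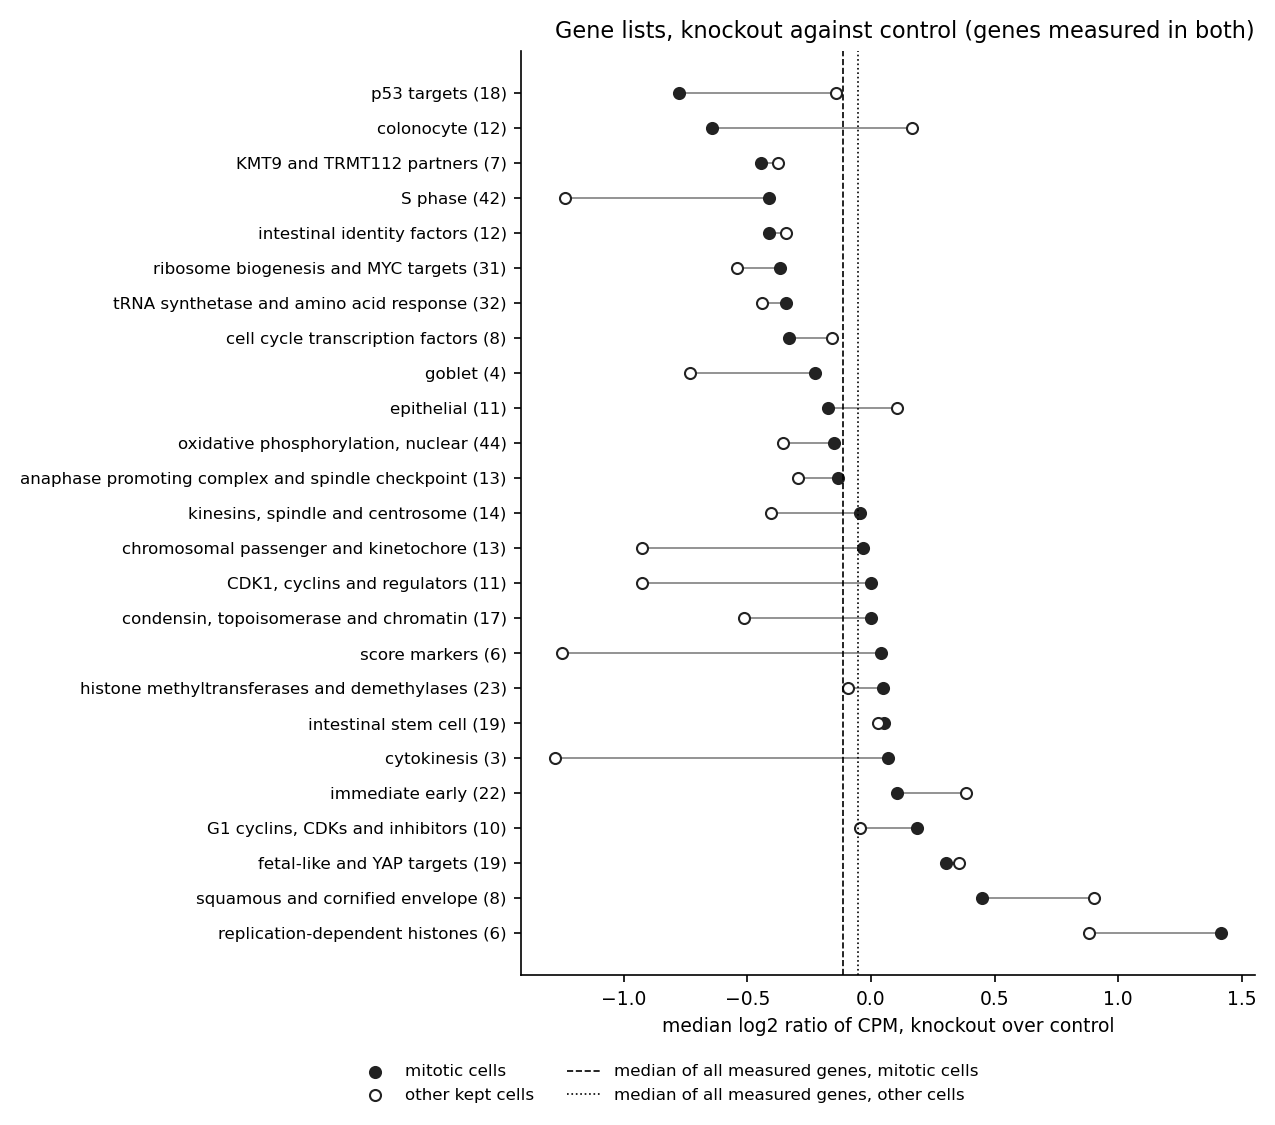
Median log2 ratio of knockout to control for each gene list, over the genes measured in both kinds of cells (number in brackets), in mitotic (filled) and other (open) cells, with the medians of all measured genes as dashed and dotted lines. The p53 targets and colonocyte genes are lowest among the filled points, the G2 and M lists lie near 0 in mitotic cells and left of it in other cells, and the replication-dependent histones are highest among the filled points.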

How the data were processed

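The labels' protocols name 10x Chromium 3′ sequencing with version 2 chemistry. The deposited matrices hold UMI counts as whole numbers, 1 value for each gene in each cell. The file headers name Cell Ranger 3.1.0 and the submitters' processing notes mm10. They hold 3618 control and 2078 knockout barcodes of 500 or more UMIs and 31053 genes, of which 30934 identifiers were found in GENCODE release M21, used for positions.

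Cells were filtered and scored as the report says. Within a library UMIs were summed over mitotic and over other cells, and each sum became CPM with no pseudocount. With 1 library per group no test was possible, and exact Poisson, conditional binomial and Clopper-Pearson intervals at 95% cover counting error only. The calculations were checked on simulated data. Doublets were not removed, because the automatic threshold of Scrublet (scanpy 1.11.5) marked 1 and 4 cells. Removing the cells with the highest scores instead (58 and 18, of which 7 and 1 were mitotic) was an alternative. Trimmed mean factors came from edgeR 4.0.16, used on the summed counts for scaling alone.

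The mitotic cells, the 31 gene lists and the genes named were chosen with earlier results of these data known. Named genes are a fixed set, the 12 highest and 12 lowest ratios of mitotic to other cells and of knockout to control at 50 or more CPM, the 8 on each side whose knockout ratio differed most between mitotic and other cells, and up to 4 per list, or more in cell cycle lists. Unnamed predicted genes were left out.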

Additional observations from a re-analysis of the deposited data

How the results depend on the processing

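No paired analysis was possible because each group has 1 library. Of 18 alternatives 16 were listed at the outset and 2 were chosen after seeing the data, which left out the smaller copies of shared barcodes or the mitotic cells with a high S phase share. Other limits of the score moved the shares of mitotic cells: the top 5% held 5.62% of control and 3.87% of knockout cells, the top 20% held 24.2% and 12.5%, and the top 10% of each library 10.0% of each by construction. Counts of genes moved with the threshold. At 50 or more CPM 248 genes were higher and 89 lower in mitotic than in other cells, and 190 were higher and 422 lower in knockout mitotic cells. With no minimum these counts were 3298, 819, 4114 and 2250, and at 2-fold 331, 85, 234 and 317. Every other alternative kept the 4 counts within 1.5 times. Alternatives on single genes covered 73 named genes, those of the fixed set and of the highest and lowest values. Genes named only as members of a list, such as Bbc3, Perp and Mdm2, were not among them. Of the 73, 47 were at 1.5-fold or more between the libraries in mitotic cells. Of these 47 genes 45 kept their direction in all 14 alternatives run on single genes. In these, leaving out the cells of shared barcodes means removing them before scoring, so that the top 10% was chosen anew. The exceptions were Car1 (2.25), which gave −0.70 without cells of shared barcodes, −0.64 in the top 5%, −1.81 with scores from thinned cells and −2.22 with the other G2 and M genes, and Cxcl10 (−0.76), which gave 0.27 without cells of shared barcodes. The cause was not tested. The p53 median ranged from −0.79 to −0.62, that of histones from 0.94 to 1.40, and that of S phase genes from −0.64 to −0.20. The list of CDK1, cyclins and regulators ranged from −0.34, with the top 10% of each library, to 0.06. Depth limits the knockout mitotic sum most, which holds 3714249 UMIs against 10256581 in the control.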
